A study of Mus musculus with 3 samples.

Results

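The transcriptome of whole embryonic kidneys that carried the Enl-T1 mutation was compared with that of wild-type kidneys across all genes outside the *Hox* family and the electron transport chain. Droplet single-cell RNA sequencing (10x Genomics, which counts the 3′ ends of transcripts as unique molecular identifiers, UMIs) was performed by the authors on kidneys of mouse embryos at E15.5. A cell was kept when it had from 1000 to 6000 genes and from 1% to 10% of its UMIs were mitochondrial, which gave 5187 Enl-WT and 4024 Enl-T1 cells, together 9211 of the 11226 cells that pass this filter in the 3 libraries of the series. UMIs were summed over the kept cells of a library and expressed as CPM, UMIs scaled to a common library total. Of 23703 genes with a UMI in either library, 3968 had at least 50 CPM in 1 of them, and the 3857 of these outside the *Hox* family and the electron transport chain were compared.

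The Enl-T1 embryos were Enl flox-T1/+ Wt1 GFPCre/+, so the mutant allele was heterozygous and conditional, and was switched on where a GFP-Cre fusion was made from the *Wt1* locus. The Enl-WT embryos were Enl +/+ Wt1 GFPCre/+. Both groups therefore carried the knock-in that inactivates 1 copy of *Wt1*, and neither was treated. A further library, Enl-T1 TDI-11055, came from Enl-T1 embryos whose mothers were given 100 mg/kg of TDI-11055, an inhibitor of ENL, daily by mouth from E10.5 to E14.5. Its levels are set beside the others for the genes described, and both comparisons it allows share a library with the comparison above. Of its 6453 barcodes 2015 were kept, with a median of 19824 UMIs per cell, and 739 were lost by the 1% mitochondrial limit alone. Among its kept cells 45.3% held *Xist* without a Y-linked gene and 41.4% a Y-linked gene without *Xist*. Its cells were not sorted into types, so the part of cell makeup in its levels was not tested. Kidneys of more than 1 embryo were pooled into each library, their sex was not recorded, red cells were lysed during preparation, and each group had 1 library. There were no replicates, so no test was run, a gene was called higher or lower only by a ratio of CPM of at least 2, and the 95% intervals given cover counting error only.

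ENL, encoded by *Mllt1*, reads acetylated histones through its YEATS domain and brings the elongation machinery to chromatin; mutations in this domain, found in Wilms tumour, make the protein gather at some targets. In the developing kidney, progenitors of the cap mesenchyme either renew themselves or become epithelium, which then forms podocytes, proximal tubule, loop of Henle and distal tubule. The ureteric bud gives rise to the collecting duct and urothelium, and *Foxd1* progenitors to the stroma. *Wt1* is active in nephron progenitors and podocytes and in early stroma.

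The altered stretch of *Mllt1* is shown because it is the difference between the groups. The 63 bases lie in exon 4 at chr17:56905754-56905816 (GRCm38, minus strand, printed in the direction of transcription), and the capitals are codons 115 to 117, asparagine, histidine and leucine, which the T1 allele holds a further time before codon 118.
Mllt1: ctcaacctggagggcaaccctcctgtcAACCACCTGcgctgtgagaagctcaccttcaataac
UMI counts do not resolve this insertion, so the labels could not be checked from it. *Mllt1* itself stood at 25.1 CPM in Enl-WT, 17.1 in Enl-T1 and 19.3 after TDI-11055, below the floor of 50 CPM, with a log2 ratio of −0.55 (Enl-T1 over Enl-WT) that was −0.20 by median-of-ratios scaling. *Wt1*, of which both groups lack 1 copy, stood at 104 CPM in Enl-WT and 40.00 in Enl-T1, 2.60-fold lower (ratio 0.384, 95% counting interval 0.363 to 0.407).

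The libraries differed in ways that touch every ratio. Enl-WT held 31824620 UMIs in kept cells (median 5099 UMIs per cell) and Enl-T1 43597313 (median 9540), and 10 barcodes occurred in both. Ribosomal protein genes took 15.8% of the UMIs in Enl-WT and 26.2% in Enl-T1. By sex-linked transcripts, 26.5% of Enl-WT and 75.05% of Enl-T1 cells held *Xist* without a Y-linked gene, and 46.6% and 16.6% a Y-linked gene without *Xist*. Clusters named from marker genes, with the suffix "-like", put 41.4% of Enl-WT and 26.5% of Enl-T1 cells in nephron-like clusters, 16.7% and 34.6% in stroma-like, 33.3% and 28.8% in ureteric epithelium-like and 7.27% and 5.79% in endothelium-like clusters. Immune-like cells were 0.174% and 0.422%, and 1.12% and 3.93% of cells stayed unnamed. Summed CPM of marker lists for immune, neural and Schwann, adrenal and gonadal, and muscle cells were 32.3, 35.4, 10.7 and 34.5 in Enl-WT and 58.5, 32.5, 4.52 and 28.8 in Enl-T1, with no member at 50 CPM.

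Across the 3857 genes, 108 (2.8%) were at least 2-fold higher in Enl-T1 and 297 (7.7%) at least 2-fold lower when each library was scaled to its total UMIs. The median log2 ratio of all genes was −0.35, and 72.8% of genes lay below 0. Scaling to the total without mitochondrial, ribosomal protein and haemoglobin genes raised every log2 ratio by 0.19, and median-of-ratios scaling raised it by 0.35. Higher genes were 26.7% of the calls by total UMIs, 53.7% (160 higher, 138 lower) by the depleted total and 72.8% (201 higher, 75 lower) by median of ratios. All 108 higher genes (2.8% of those tested) passed the limit under the 3 scalings, and 75 of the lower genes (1.94%) did. Because both other scalings raised every log2 ratio, a gene higher by total UMIs could not fail them. The 75 are therefore the lower genes by median of ratios, and the 2 shares do not compare how firm the calls are. The counting interval of the ratio lay on 1 side of 1 for each of the 405 calls. This was fixed in advance by the counts that the floor and the 2-fold limit require. A gene could enter through the library in which it was high: 182 of the 297 lower genes reached 50 CPM in Enl-WT alone and 47 of the 108 higher genes in Enl-T1 alone. Medians of gene lists below are to be read against −0.35, and list counts against 2.8% and 7.7%.

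**Figure D1:**
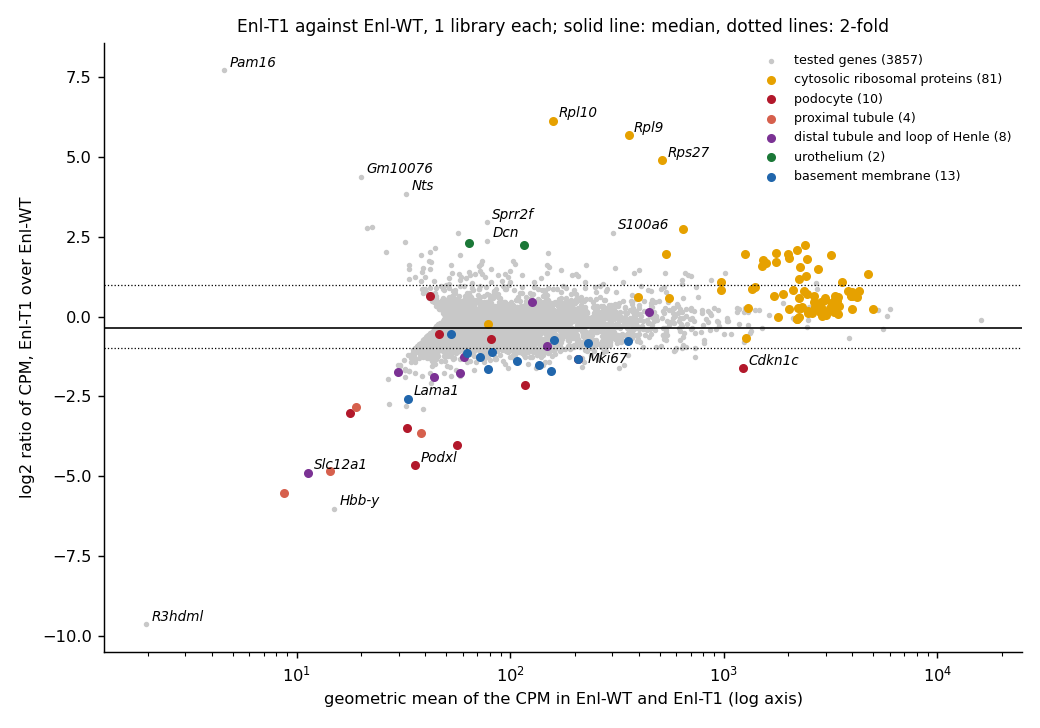
Log2 ratio of CPM (Enl-T1 over Enl-WT, 1 library each) of each of the 3857 genes against the geometric mean of its CPM (log axis), with 6 gene lists in colour and *R3hdml*, which has no UMI in Enl-T1, drawn at its bound. The solid line is the median of −0.35 and the dotted lines mark 2-fold; podocyte and tubule genes reach far below, ribosomal protein genes lie mostly above 0, and *Pam16*, *Rpl10*, *Rpl9* and *Rps27* stand apart at the top.

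Genes of differentiated nephron were among the lowest in Enl-T1. *R3hdml* had 1760 UMIs in Enl-WT (55.3 CPM) and none in Enl-T1, which makes it at least 804-fold lower (3 counts taken as the floor of the library), and it stood at 1.22 CPM in Enl-T1 TDI-11055. In Enl-WT 98.9% of its UMIs were in nephron-like cells. In summed libraries, fewer cells of a type and less RNA per cell cannot be told apart for a gene whose UMIs lie mainly in 1 class.

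Proximal tubule genes came next. *Lrp2*, the endocytic receptor megalin, stood at 76.6 CPM in Enl-WT, 2.68 in Enl-T1 and 5.06 after TDI-11055, 28.5-fold lower in Enl-T1, and *Fxyd2*, a subunit of the sodium pump, fell from 135 to 10.7 CPM (12.6-fold). *Fut9*, a fucosyltransferase, went from 50.5 to 7.04 CPM. Of 20 proximal tubule genes listed, 4 reached 50 CPM and were lower (median −4.24), and all 20 together summed to 611 CPM in Enl-WT and 75.2 in Enl-T1. The 4 stayed called under the 3 scalings.

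Genes of the loop of Henle and distal tubule were lower by unequal amounts. *Slc12a1*, the sodium-potassium-chloride cotransporter of the thick ascending limb, stood at 61.8 CPM in Enl-WT and 2.06 in Enl-T1 (29.9-fold lower). *Tfap2b* and *Sim1*, transcription factors of the distal nephron, were 3.43-fold and 3.35-fold lower, and *Sostdc1*, a secreted BMP antagonist, 3.73-fold lower. Of 16 genes listed, 8 reached the floor, 5 were lower and none higher, with a median log2 ratio of −1.503. *Mal* and *Wfdc2*, singled out like *Nusap1*, *Birc5*, *Jun*, *Klf6*, *Neat1*, *Tmsb10* and *Tmsb4x* below after their values were seen, had 73.8% and 63.6% of their Enl-WT UMIs in ureteric epithelium-like cells and log2 ratios of 0.47 and 0.15, and the list summed to 1227 and 857 CPM.

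Most podocyte genes at the floor were lower as well. *Podxl*, the sialomucin of the podocyte surface, stood at 181 CPM in Enl-WT, 7.13 in Enl-T1 and 10.2 after TDI-11055, 25.3-fold lower in Enl-T1. *Thsd7a*, a membrane protein of their foot processes, went from 110 to 9.75 CPM (11.3-fold). *Magi2*, a scaffold of the slit diaphragm, was 8.20-fold lower and *Nes*, the filament protein nestin, 4.44-fold lower. Of 18 podocyte genes 10 reached the floor and 7 were lower, with a median of −1.89; *Tcf21*, which stroma also makes, was the member above 0 (0.65). The 18 summed to 3769 CPM in Enl-WT and 1177 in Enl-T1. *Cdkn1c*, a cell cycle inhibitor on this list, gave most of that sum: 2165 CPM in Enl-WT, 704 in Enl-T1 and 545 after TDI-11055.

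Further genes among the 15 lowest were *Dpp4* (107 to 14.3 CPM) and *Enpep* (69.4 to 10.46 CPM), peptidases of the brush border and podocyte surface, and *Ren1*, the renin gene of juxtaglomerular cells. *Ren1* stood at 86.2 CPM in Enl-WT, 12.3 in Enl-T1 and 1.66 after TDI-11055. It was 6.98-fold lower in all cells, and within stroma-like cells, which held 92.7% of its Enl-WT UMIs, it went from 626 to 37.9 CPM. The cluster led by *Ren1* held 189 of the Enl-WT and 105 of the Enl-T1 cells of that class, and its part in this value was not tested. *Ren1* was the only call among 3 members of the list for renin cells, mesangium and pericytes that reached the floor (median −0.41).

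**Figure D2:**
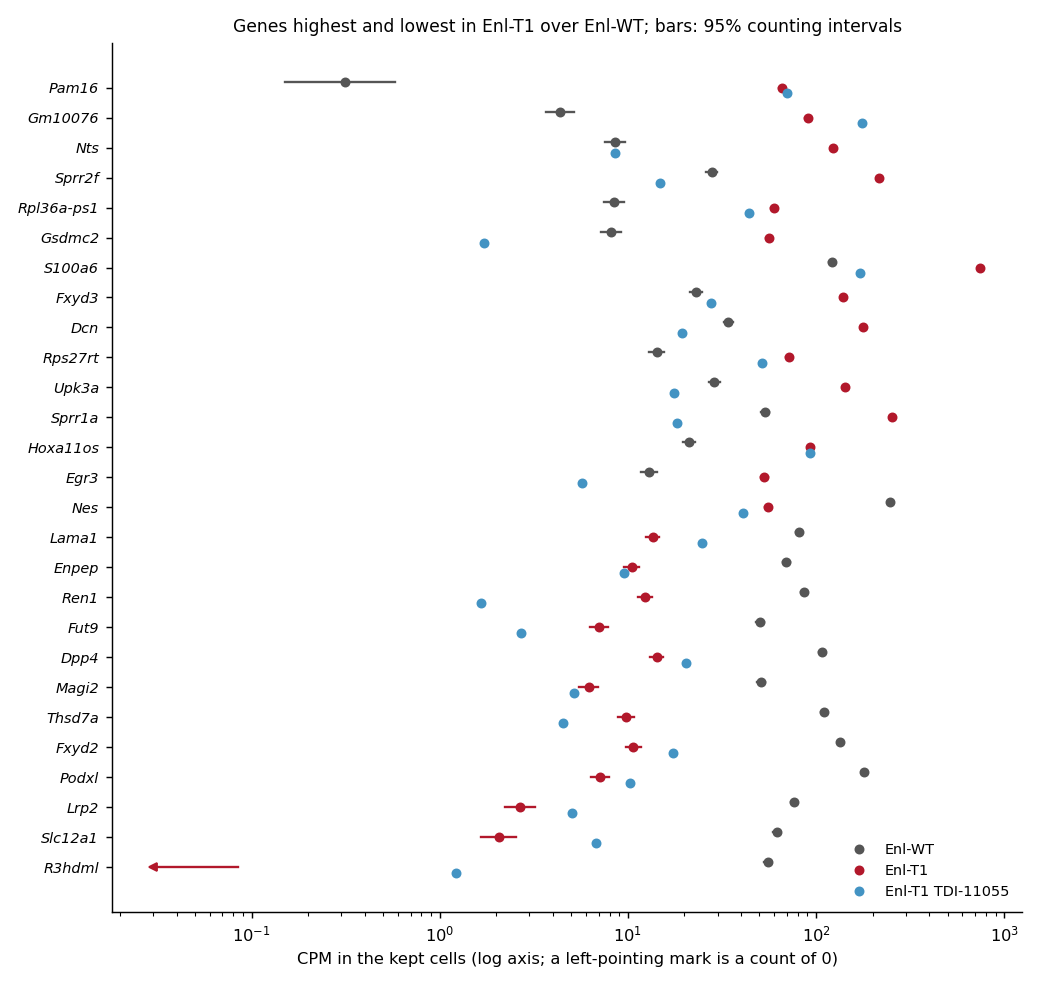
CPM in the kept cells of the 3 libraries (log axis) for 14 of the 15 genes highest and 13 of the 15 lowest in Enl-T1 over Enl-WT among those called under the 3 scalings; bars are 95% counting intervals for Enl-WT and Enl-T1. The lowest gene, *R3hdml*, has a count of 0 in Enl-T1, and the Enl-T1 TDI-11055 library lies near Enl-T1 for *Pam16* and *Hoxa11os* and near or below Enl-WT for *Nts*, *Sprr2f*, *Upk3a* and *Dcn*.

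Earlier stages of the nephron lineage were lower by less. *Cited1*, a marker of self-renewing progenitors, went from 60.3 CPM in Enl-WT to 18.5 in Enl-T1 (3.26-fold lower) and stood at 64.4 in Enl-T1 TDI-11055. *Six2*, the transcription factor that maintains them, was below the floor at 28.4 and 18.2 CPM (log2 −0.65). Of 20 self-renewal genes 8 reached the floor, 4 were lower (*Cited1*, *Hs3st3b1*, *Wt1* and *Spock2*) and none higher, with a median of −1.02. With the lineages weighted by their UMI share in Enl-WT this median was −0.75, and the log2 ratios of *Cited1* and *Six2* were −1.25 and −0.13. Among commitment genes, *Jag1*, a Notch ligand, was 3.23-fold lower (100 to 31.1 CPM), *Lhx1*, a transcription factor of the renal vesicle, 2.64-fold lower, and *Cdh6*, a cadherin of early epithelium, 2.09-fold lower. *Wnt4*, the signal that starts epithelial conversion, had the opposite sign, with 149 and 265 CPM (log2 0.82 by total UMIs, short of a call, and 1.17 by median of ratios), and stood at 128 in Enl-T1 TDI-11055. Its log2 ratio was 1.11, 1.36, 0.60 and 1.23 within nephron-, stroma-, ureteric epithelium- and endothelium-like cells. The 7 commitment genes at the floor had a median of −0.68. *Cdh6* did not pass under the 3 scalings (log2 −0.71 by median of ratios). With the lineages weighted by their UMI share in Enl-WT it stood at −0.88. The paper reports *Cdh6* as higher in Enl-T1 within clusters of nephron progenitors, for which no ratio is given here. The part of cell makeup in its lower sum was not tested.

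Among the 15 highest genes, 6 (*Sprr2f*, *Gsdmc2*, *S100a6*, *Fxyd3*, *Upk3a* and *Sprr1a*) had most of their UMIs in ureteric epithelium-like cells. *Upk3a*, which encodes a uroplakin of the bladder and ureter lining, stood at 28.8 CPM in Enl-WT, 143 in Enl-T1 and 17.7 after TDI-11055. *Sprr2f* and *Sprr1a*, small proline-rich proteins of the cornified envelope, went from 27.9 to 217 CPM and from 53.5 to 253 CPM, and stood at 14.8 and 18.3 in Enl-T1 TDI-11055. *Gsdmc2*, a gasdermin, rose from 8.14 to 56.1 CPM, and *Fxyd3*, a regulator of the sodium pump, from 22.9 to 140 CPM. *S100a6*, a calcium-binding protein, rose from 122 to 746 CPM, and *Krt19*, a keratin of duct epithelium, from 84.8 to 260 CPM. Ureteric epithelium-like cells held 94.7% of the Enl-WT UMIs of *Krt19* and 98.2% of those of *Sprr1a*, with *Upk3a*, *Sprr2f* and *Gsdmc2* between. *Upk3a* went from 80.2 to 393 CPM within these cells. The cluster led by *Upk1b* and *Upk3a* held 55 Enl-WT and 107 Enl-T1 cells of the class, that led by *Sprr2f* 506 and 522, and those led by *Calb1* 633 and 329, and 534 and 199. The part of this makeup in the values within the class was not tested.

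The promoters of *Sprr2f* and *Sprr1a*, and of *Nts* described below, are printed because these 3 of the highest genes share a letter run in them; they are the 250 bases before the start given by RefSeq (GRCm38.p6). The capitals mark TATAAA and TGAGTCA, the latter being the AP-1 motif TGACTCA on the opposite strand. Positions are chr3:92364937-92365186 (plus strand), chr3:92485882-92486131 (minus) and chr10:102490419-102490668 (minus).
Sprr2f: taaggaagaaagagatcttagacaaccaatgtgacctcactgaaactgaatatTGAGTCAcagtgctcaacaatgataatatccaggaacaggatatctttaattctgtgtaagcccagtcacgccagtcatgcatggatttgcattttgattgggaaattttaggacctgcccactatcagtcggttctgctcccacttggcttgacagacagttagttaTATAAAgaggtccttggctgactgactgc
Sprr1a: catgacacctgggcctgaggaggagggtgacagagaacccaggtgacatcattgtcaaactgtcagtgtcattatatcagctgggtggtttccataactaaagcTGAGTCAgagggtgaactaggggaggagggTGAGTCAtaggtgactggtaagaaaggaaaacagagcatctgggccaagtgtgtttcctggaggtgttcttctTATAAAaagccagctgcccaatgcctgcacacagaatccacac
Nts: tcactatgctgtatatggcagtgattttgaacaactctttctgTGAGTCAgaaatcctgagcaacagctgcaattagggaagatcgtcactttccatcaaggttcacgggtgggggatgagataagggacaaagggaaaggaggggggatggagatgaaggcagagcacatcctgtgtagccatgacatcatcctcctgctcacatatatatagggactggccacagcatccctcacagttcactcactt
TGAGTCA lay 197 bases before the start of *Sprr2f*, 146 and 116 before that of *Sprr1a*, and 207 before that of *Nts*; these 3 were chosen after their values were seen. In windows of 300 bases around the start, read on both strands, the AP-1 motif occurred in 6.32% of the 95 promoters of higher genes, 3.09% of the 291 of lower genes, 3.18% of the 3962 of all genes compared and 5.20% of all 32851 in the table. TATAAA occurred in 15.8%, 6.53%, 6.97% and 13.6% of the same windows. Of the 108 higher genes, 80 had a window.

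The ratios of several of these ureteric epithelium genes were unequal between cells sorted by sex-linked transcripts. The log2 ratio of *Upk3a* was 2.68 among cells that held *Xist* alone and 0.21 among cells that held a Y-linked transcript alone. For *Sprr1a* the values were 2.64 and 0.48, for *Gsdmc2* 3.004 and 1.25 and for *Krt19* 1.80 and 0.59. Those of *Cldn7*, a gene of the same lineage described below, were 1.04 and 1.08. Of 12 urothelial genes only *Upk3a* and *Sprr1a* reached the floor, and the 12 summed to 112 CPM in Enl-WT and 486 in Enl-T1. The median of those 2 genes was 2.66 and 0.35 in the 2 sets of cells. The 2 sets come from different embryos of each pool, and cells could not be mapped to embryos. Sex therefore cannot be told apart from other differences between embryos, and its part in this result was not tested.

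Other genes of the ureteric lineage differed less. Of 10 genes of the ureteric trunk and collecting duct at the floor, *Krt19* and *Cldn7*, a claudin (232 to 488 CPM), were higher and none lower, with a median of 0.11. Of the ureteric tip list, *Gfra1*, a co-receptor for GDNF, *Etv4*, a target of RET signalling, and *Lhx1* were lower in the sums (2.33-, 2.25- and 2.64-fold). The median over 6 genes was −0.71. *Gfra1* and *Etv4* did not pass under the 3 scalings, and both stood higher in Enl-T1 TDI-11055 (117 and 84.8 CPM) than in Enl-T1 (50.3 and 25.02). *Sox9*, also a tip factor, stood at 63.5 CPM in Enl-WT, 111 in Enl-T1 and 138 after TDI-11055.

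Some stromal genes were higher in the sums, with 3 of 12 stroma markers at the floor higher and 1 lower. *Nts*, which encodes the peptide neurotensin, rose from 8.55 to 123 CPM, 14.4-fold (95% counting interval 12.8 to 16.4), and stood at 8.55 in Enl-T1 TDI-11055. In Enl-T1 96.7% of its UMIs were in stroma-like cells, within which it went from 47.8 to 471 CPM. The cluster led by *Nts* held 245 of the Enl-WT and 610 of the Enl-T1 cells of that class, and its part in this value was not tested. *Dcn*, the proteoglycan decorin, went from 34.3 to 178 CPM (19.4 in Enl-T1 TDI-11055), and *Col3a1*, a fibrillar collagen, from 154 to 323 (59.8 in Enl-T1 TDI-11055). Of the medullary stroma list, *Snai2*, a transcription factor of mesenchyme, rose from 23.6 to 77.3 CPM in the sums over all cells. *Penk*, the enkephalin precursor, rose from 43.1 to 108 CPM in the sums, and from 314 to 406 CPM (log2 0.37) within stroma-like cells.

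The stromal share of the library moved with these genes. With the lineages weighted by their UMI share in Enl-WT, the log2 ratio of *Col3a1* went from 1.07 to 0.14, that of *Penk* from 1.33 to 0.41, that of *Dcn* from 2.38 to 1.46 and that of *Nts* from 3.85 to 2.91. Of 9 fibrillar matrix genes at the floor 2 were higher, with a median of 0.74 that became −0.15 with these weights. Of 6 genes of the medullary stroma list at the floor, 2 were higher and 1 (*Cdkn1c*) lower in the sums, with a median of 0.70. Cortical stroma had no call among 5 genes (median 0.19) and ureteric mesenchyme with smooth muscle none among 7 (median 0.02).

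Most basement membrane genes at the floor were lower. *Lama1*, the laminin chain of epithelium, stood at 81.0 CPM in Enl-WT, 13.6 in Enl-T1 and 24.8 after TDI-11055 (5.96-fold lower). *Lamb1* and *Lamc1*, which join it in laminin-111, went from 281 to 85.2 and from 231 to 80.1 CPM. *Frem2*, of the Fraser complex that ties epithelium to mesenchyme, was 3.13-fold lower. Of 13 members at the floor 9 were lower, 5 of them under the 3 scalings, and the median was −1.27. All 13 lay below 0 by total UMIs, they were long (median exonic length 9285 bases), and the relation with length is given below. Over all genes of the collagen family, 1 of 6 at the floor was higher and the median was 0.02, with the basement membrane chain *Col18a1* at −0.84.

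**Figure D3:**
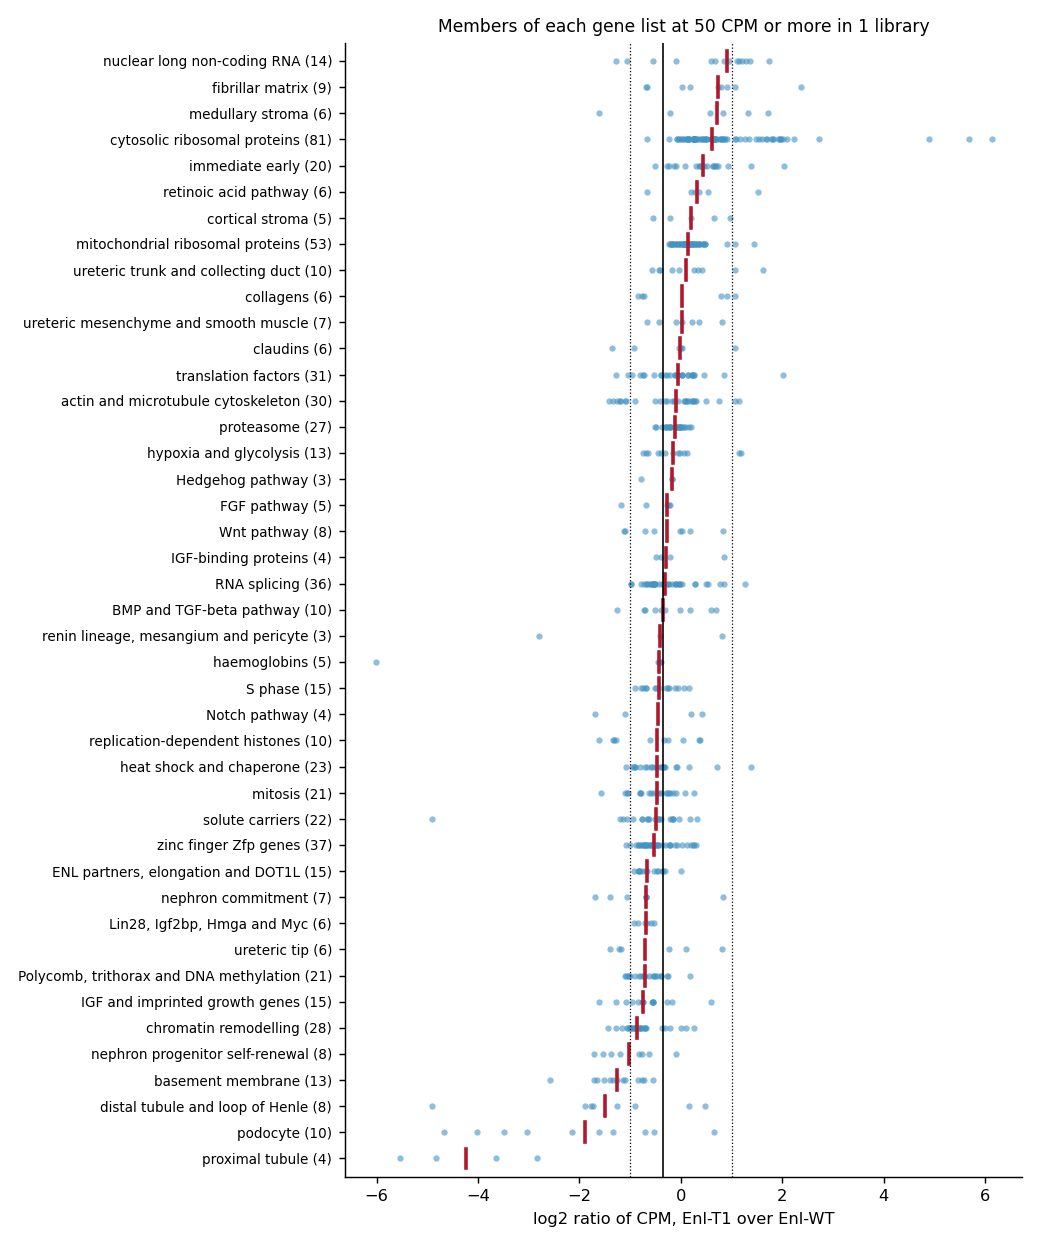
Log2 ratio of CPM (Enl-T1 over Enl-WT) of the members of each gene list that reached 50 CPM in 1 library (points), with the median of the list (red bar) and the number of members in brackets; lists with at least 3 such members are shown. The solid line is the median of all genes, −0.35, and dotted lines mark 2-fold. Proximal tubule, podocyte and distal tubule genes lie lowest. Long non-coding RNA (a list that includes *Xist*), fibrillar matrix, medullary stroma and ribosomal protein genes lie highest. *Hox* and electron transport chain genes are not drawn.

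Many of the differences were found within each of 4 cell classes. Of the 108 higher genes, 97 were higher in all 4 of the nephron-, stroma-, ureteric epithelium- and endothelium-like classes, 65 of them by at least 2-fold in all 4, and 13 reached 2-fold in a single class. Of the 297 lower genes, 278 were lower in all 4 classes, 59 by at least 2-fold, and 36 reached 2-fold in a single class. Of all 3857 genes, 12.8% lay above 0 and 58.1% below 0 in all 4 classes. The share of all genes at 2-fold in all 4 classes was not counted. The calls were made on sums that hold the cells of these same classes, so agreement between classes follows in part from the selection. The median log2 ratio of all genes was −0.40, −0.35, −0.30 and −0.33 in the 4 classes. Counted from the median of each class, 79 of the 108 higher and 10 of the 297 lower genes reached 2-fold in all 4. By total UMIs the higher genes at 2-fold were 88, 84, 94 and 77 in the 4 classes and the lower genes 264, 190, 176 and 143.

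Within the nephron-like class the tubule and podocyte genes were lower by as much or more than in the sums. *Podxl* went from 377 to 1.103 CPM there (log2 −8.42), while in endothelium-like cells, which also make it, it went from 192 to 93.4 (−1.04). *Thsd7a* went from 224 to 2.36 CPM (−6.57) in nephron-like cells and from 94.2 to 43.6 (−1.11) in endothelium-like cells. *Cdkn1c* went from 4121 to 260 CPM in nephron-like cells (−3.99) and from 2450 to 2106 in stroma-like cells (−0.22). The nephron-like class was made up differently: its larger clusters in Enl-WT were led by *Slc12a1* (566 cells), *Cited1* (559) and proximal tubule genes such as *Lrp2* (495), and in Enl-T1 by *Cited1* (520) and *Six2* (339). The clusters were built from genes that include the markers described, and the part of this makeup in the values within the class was not tested.

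**Figure D4:**
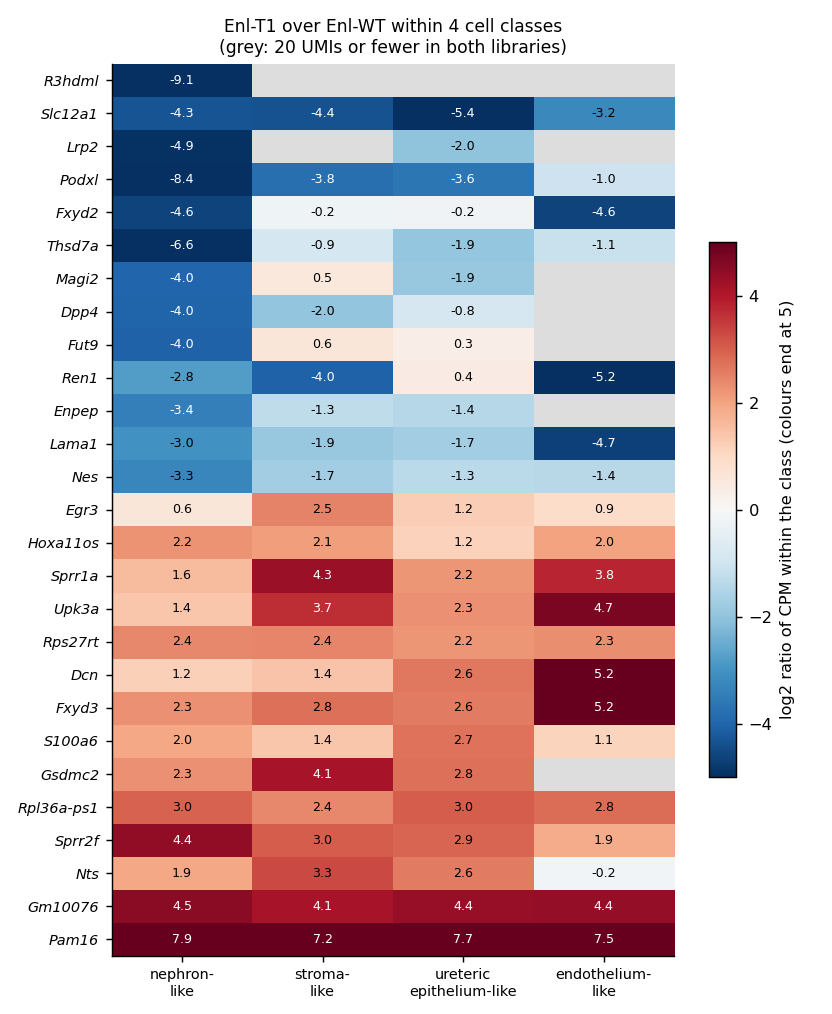
Log2 ratio of CPM (Enl-T1 over Enl-WT) within the nephron-, stroma-, ureteric epithelium- and endothelium-like cells for the same genes as in the plot of levels; red is higher in Enl-T1, blue lower, and grey has 20 UMIs or fewer in both libraries. *Pam16*, *Gm10076* and *Rps27rt* are alike in the 4 classes, whereas *Podxl*, *Thsd7a* and *Nes* are lowest in nephron-like cells.

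Genes of the cell cycle had list medians near that of all genes. The share of lower genes exceeded the 7.7% of all genes in the mitosis and histone lists. *Mki67*, made in cycling cells, went from 374 to 125 CPM (2.995-fold lower) and was lower in all 4 classes, and *Hist1h1b*, a linker histone, from 564 to 185 CPM (3.05-fold). Of 21 mitotic genes at the floor 4 were lower, 1 of them under the 3 scalings, and the median was −0.48 beside −0.35 for all genes. None of 15 S phase genes was called (median −0.43), and 4 of 10 replication-dependent histones and variants were lower, all of them linker histones (median −0.47). *Nusap1* and *Birc5*, also mitotic, stood at 0.25 and 0.07. In nephron-like cells the medians were −0.11 for mitosis and −0.10 for S phase, beside −0.40 for all genes in that class.

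Few signalling genes reached the floor, so each share of calls rests on few members. The share of lower genes exceeded the 7.7% of all genes in the Wnt, Notch, BMP and TGF-beta, FGF and imprinted growth lists. In the Wnt pathway the co-receptors *Lrp6* (161 to 74.5 CPM) and *Lgr4* (78.9 to 36.7) were lower among 8 genes at the floor (median −0.27), and neither passed under the 3 scalings. In the Notch pathway the ligand *Jag1* and the receptor *Notch1* were lower among 4 (median −0.46), while *Hes1*, a target gene, stood at 0.41. The ligand *Bmp7* was the call among 10 BMP and TGF-beta genes (60.4 to 25.2 CPM, median −0.35), and *Etv4* that among 5 FGF genes (median −0.27). None of 3 Hedgehog genes was called (median −0.17). *Crabp1*, which binds retinoic acid in the cytosol, was higher (23.0 to 66.4 CPM) among 6 retinoic acid genes (median 0.32). None of 4 IGF-binding protein genes was called (median −0.30). In the list of IGF and imprinted growth genes *Cdkn1c*, *Kcnq1ot1* and *Igf2r* were lower among 15 (median −0.74). *Notch1*, *Bmp7*, *Etv4*, *Kcnq1ot1* and *Igf2r* did not pass under the 3 scalings either.

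Immediate early genes, which dissociation and signalling both induce, were higher in part. *Fos* stood at 328 CPM in Enl-WT, 852 in Enl-T1 and 273 after TDI-11055, and *Egr3* at 12.9, 53.1 and 5.70. *Egr1* (log2 0.93) and *Nr4a1* (0.74) did not reach 2-fold by total UMIs. Of 20 genes 2 were higher and none lower, with a median of 0.43, and *Jun* and *Klf6* lay at −0.24 and −0.51. In nephron-like cells the median of the list was −0.82 and in ureteric epithelium-like cells 0.69.

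Most chromatin genes did not reach 2-fold. Of 28 genes of chromatin remodelling, all at the floor, 7 were lower and none higher (median −0.86), with *Chd7* (102 to 38.1 CPM) the only one lower under the 3 scalings. Of 21 Polycomb, trithorax and DNA methylation genes 5 were lower (median −0.71), among them *Tet3*, *Kmt2d*, *Tet2* and *Kmt2c*, and none under the 3 scalings. None of 15 genes for ENL partners and elongation was called (median −0.67), with *Aff4*, a scaffold of the super elongation complex, at −0.92. By median of ratios, which brings the median of all genes to about 0, the medians of these 3 lists were −0.51, −0.36 and −0.32. *Dnmt1*, *Ezh2* and *Ash2l* lay at −0.71, −0.48 and −0.50. None of 6 genes of the *Lin28*, *Igf2bp*, *Hmga* and *Myc* list was called (median −0.69). *Hmga2*, an architectural chromatin factor, stood at 225 CPM in Enl-WT, 137 in Enl-T1 and 252 after TDI-11055.

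Among other lists, *Hspe1*, a mitochondrial chaperonin, was higher (234 to 609 CPM) and *Hspa4* lower among 23 heat shock and chaperone genes (median −0.48). *Hk2* and *Gapdh*, enzymes of glycolysis, were higher among 13 hypoxia and glycolysis genes (median −0.15). Among 31 translation factors 1 was higher and 2, *Eif4g1* and *Eif3a*, lower (median −0.06), *Snrpg* was higher among 36 splicing genes (median −0.32), and none of 27 proteasome genes was called (median −0.11). Of 30 cytoskeletal genes 2 were higher (*Tmsb10* at 1.14 and *Tmsb4x* at 1.06, small actin-binding proteins) and 7 lower (among them the large proteins *Macf1*, *Myh9* and *Dst*), with a median of −0.09. *Cldn7* was higher and *Cldn5* lower among 6 claudins (median −0.02), 4 of 22 solute carriers were lower (median −0.48), and 2 of 37 Zfp zinc finger genes were lower (median −0.53). Over the marker lists used to name cells, 15 of 19 nephron markers at the floor were lower and none higher (median −1.70), 3 of 12 stroma markers were higher and 1 lower (0.49), 2 of 7 ureteric epithelium markers were higher (0.34), and 2 of 8 endothelium markers were lower (−0.58).

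*Hbb-y*, the embryonic beta-like globin, stood apart from the other globins. It had 121 CPM in Enl-WT, 1.86 in Enl-T1 and 223 after TDI-11055, and was 65.0-fold lower in Enl-T1. The other 4 globins at the floor lay between −0.44 and −0.39 (median of the 5 −0.43), and the erythroid marker list summed to 2091 and 1440 CPM. *Hbb-y* was spread over the classes, with 114, 111, 125 and 149 CPM in nephron-, stroma-, ureteric epithelium- and endothelium-like cells of Enl-WT. No erythroid class was named among the clusters.

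The gene family with most higher calls was that of the cytosolic ribosomal proteins. Of 81 at the floor 24 were higher, none lower, and 75 lay above 0, with a median of 0.62; the 84 genes summed to 158227 CPM in Enl-WT and 261690 in Enl-T1. Among the higher genes, *Rpl10* went from 19.01 to 1331 CPM, *Rpl9* from 50.1 to 2564 and *Rps27* from 93.7 to 2801, and in Enl-T1 TDI-11055 they stood at 1635, 2842 and 2522. The ratios of these 3 hardly varied between cell classes, with log2 values of 6.04 (nephron-like) to 6.401 (endothelium-like) for *Rpl10* and 4.84 to 4.95 for *Rps27*. They were thus low in Enl-WT alone, and alike in the other 2 libraries and in every class, as was *Pam16* below. The 3 libraries list the same 32285 genes. Whether reads were assigned in the same way in each library was not tested, for these 4 genes or for any other. Other higher genes were also alike in the 2 Enl-T1 libraries, such as *Rpl36a* (1660 CPM, and 1732 after TDI-11055) and *Snrpg* (1089 and 1164). Further higher genes, such as *Nts*, were not. Of 53 mitochondrial ribosomal proteins 2 were higher (*Mrpl52* and *Mrps21*), with a median of 0.13.

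Part of this group has near-identical copies in the genome, and a read that lies within a stretch shared with a copy cannot be assigned. Of the 50-base runs at the 3′ end, 40.7% had a copy in another transcript for *Rps27*, 28.65% for *Rpl9* and 54.9% for *Rpl10*. *Rps27* and *Rps27rt* are shown because their 252 coding bases are the same (100% identity): the last 90 of each lie on the minus strand at chr3:90212728-90212997, across an intron, and at chr9:114982456-114982545 (GRCm38), and no base is in capitals since none differs.
Rps27: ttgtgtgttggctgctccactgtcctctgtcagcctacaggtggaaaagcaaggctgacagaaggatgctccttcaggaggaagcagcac
Rps27rt: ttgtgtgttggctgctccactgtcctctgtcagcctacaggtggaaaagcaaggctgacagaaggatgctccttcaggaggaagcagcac
*Rps27rt* rose with its partner, from 14.2 to 71.9 CPM, and the pair summed to 108 CPM in Enl-WT and 2873 in Enl-T1. *Rpl10* and its copy *Rpl10-ps3* summed to 52.6 and 1347 CPM, although the copy alone stood at 33.6 and 16.03. These pairs were chosen after their values were seen. *Rpl36a* and *Rpl36a-ps1* were both higher (250 to 1660 and 8.45 to 59.7 CPM). *Pam16*, a subunit of the mitochondrial import motor, had 10 UMIs in Enl-WT (0.314 CPM) and 2881 in Enl-T1 (66.1 CPM), stood at 70.0 CPM in Enl-T1 TDI-11055, and was higher in all 4 classes (log2 7.21 to 7.92). Its ratio of 210 had a counting interval of 114 to 439.

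The level of a gene with copies is uncertain. For 51.1% of the 50-base runs at its 3′ end *Pam16* has a copy in another transcript, and *Gm10076*, a non-coding RNA (4.37 CPM in Enl-WT, 90.5 in Enl-T1 and 176 after TDI-11055), for 62.9%. *Gsdmc2*, which has close relatives in its family, does so for 63.05%. Of the 259 genes with copies for at least 25% of these runs, 11.6% were higher in Enl-T1, against 2.10% of the 2666 genes with none. Ribosomal proteins were 60 of the 259; of the other 199 genes 6.53% were higher. Among ribosomal proteins, 28.3% of those 60 were higher, against 35% of the 20 with some copies under 25%. Of the 108 higher genes 30 were of this kind (27.8%), and of the 297 lower genes 3 (1.01%). *Nts*, *Sprr2f*, *Dcn*, *Upk3a*, *S100a6* and *Fxyd3* had no such copy.

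Long non-coding RNAs were also higher in part. Of 14 at the floor in a list of 17, 6 were higher, *Xist* among them, and 2 (*Kcnq1ot1* and *Neat1*) lower. The median was 0.91. *Snhg8* and *Gas5*, hosts of small nucleolar RNAs, went from 56.2 to 188 and from 433 to 1056 CPM, at 192 and 1164 in Enl-T1 TDI-11055. *Hoxa11os*, transcribed from the strand opposite *Hoxa11*, went from 21.2 to 93.2 CPM and stood at 93.4 in Enl-T1 TDI-11055. *Malat1*, of the nucleus, stood at a log2 ratio of −0.09 by total UMIs and at 0.25 by median of ratios. *Xist* was higher (408 to 1054 CPM) and *Ddx3y*, the Y-linked gene at the floor, lower (87.1 to 20.7), and the 4 Y-linked genes summed to 169 and 43.1 CPM, beside the shares of cells by sex given above.

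The ratio followed gene length across all genes. With the genes in 5 bins of equal size, the median log2 ratio was 0.13 in the bin of shortest exonic length (374 to 2493 bases), and −0.17, −0.38, −0.57 and −0.71 in the next 4 bins. The shortest bin held 80 of the 108 higher genes and the longest 139 of the 297 lower genes. The median exonic length was 1601 bases in higher genes, 8777 in lower genes and 5072 in all. Spearman's rho between length and log2 ratio was −0.59 over 3857 genes and −0.58 over the 3776 that are not ribosomal proteins, as a description across genes of 2 libraries.

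This gradient was found in each cell class. From the shortest to the longest bin the median went from 0.04 to −0.81 in nephron-like cells, from 0.12 to −0.68 in stroma-like, from 0.20 to −0.69 in ureteric epithelium-like and from 0.09 to −0.59 in endothelium-like cells. Enl-T1 TDI-11055 over Enl-WT, which shares the wild-type library, had medians of 0.23, 0.03, −0.31, −0.64 and −0.90 in the 5 bins. The part of length in the differences of chromatin, basement membrane and ribosomal protein genes was not tested; the median exonic lengths of these 3 lists were 9726, 9285 and 1781 bases.

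**Figure D5:**
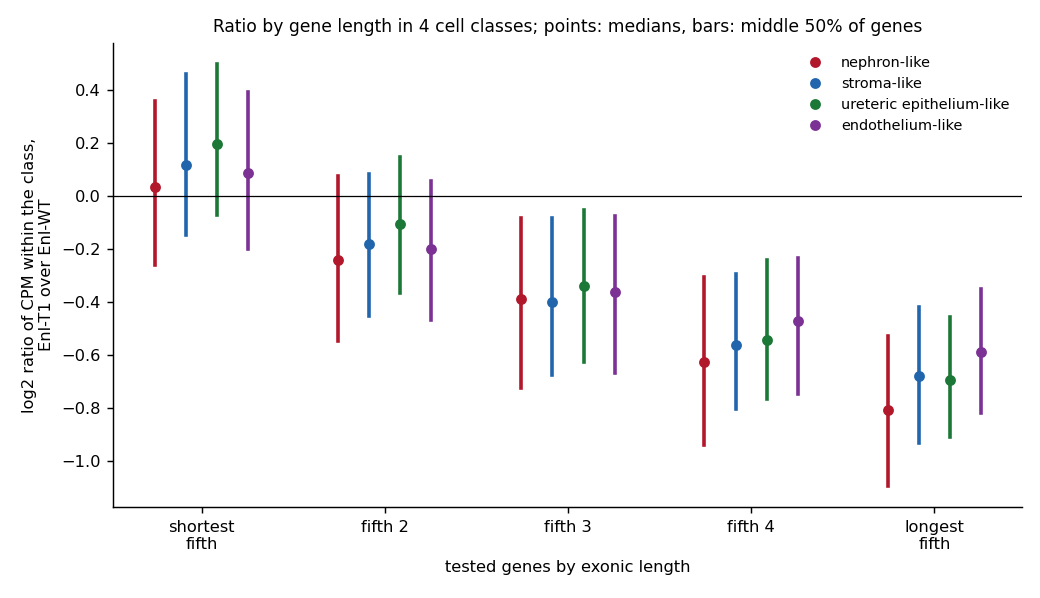
Log2 ratio of CPM (Enl-T1 over Enl-WT) within 4 cell classes for the 3857 genes in 5 bins of exonic length; points are medians and bars the middle 50% of genes. In each class the medians fall from above 0 in the shortest bin to between −0.59 and −0.81 in the longest.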

How the data were processed

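Kidney cells were profiled by the authors with the 10x Genomics 3′ v3.1 chemistry, and the deposited values are whole UMI counts per gene and barcode, made with Cell Ranger 6.1.2 on mm10 per the submitters' processing notes. Summed counts, CPM and exact 95% intervals of ratios (binomial split of the counts, counting error only) were computed with Python (numpy 2.4.6, scipy 1.17.1, pandas 2.3.3). Each group had 1 library, with no map of cells to embryos, so there was no test. In kept cells the depth was 31824620 (Enl-WT) and 43597313 UMIs (Enl-T1).

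Scaling was done in 3 ways, to total UMIs, to the total without mitochondrial, ribosomal protein and haemoglobin genes, and by median of ratios. A count of 0 was set to 3 counts per library for a bound. Classes came from Seurat 5.3.0 anchors (R 4.3.3, 2000 variable genes, 30 components, resolution 0.5), with 233 genes (*Hox*, electron transport chain, mitochondrial, ribosomal protein, haemoglobin and sex-linked) left out of the clustering. At a resolution of 1, 95.5% of cells kept their class, and the changes were unequal between libraries. Nephron-like cells were then 39.0% of Enl-WT and 20.2% of Enl-T1 cells, beside 41.4% and 26.5% at a resolution of 0.5. Unnamed cells were 3.70% and 10.3%, beside 1.12% and 3.93%. Ratios within classes were computed at a resolution of 0.5 only. Doublets stayed in, and scrublet (scanpy 1.11.5) marked 124 Enl-WT and 52 Enl-T1 cells. Of 32285 gene identifiers 32235 matched GENCODE M21, from which exonic lengths and copies in the last 300 bases of transcripts (runs of 50) were taken.

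The genes described and the lists were chosen with earlier results of these data known. Named genes were the 15 highest and 15 lowest of those called under the 3 scalings, outside *Hox*, electron transport chain, mitochondrial, ribosomal protein, haemoglobin, *Xist* and Y-linked genes, up to 4 members per list with the largest absolute ratio, *Mllt1*, *Wt1*, *Xist*, Y-linked genes, *Malat1* and genes the study names. The steps were tested on simulated data. Some of these genes are not reported here.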

Additional observations from a re-analysis of the deposited data

Results flagged for a closer look

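Among the named genes, 4 had log2 ratios (Enl-T1 over Enl-WT) of opposite sign and at least 2-fold in separate cell classes of the same libraries. Genes that were not named were not searched, so the share over all genes is not known. With 1 library per group the difference between classes was not tested. The nephron-, stroma- and ureteric epithelium-like classes were made up of clusters in unequal shares in the 2 libraries. The part of this makeup in these values was not tested either. *Igfbp2*, which binds insulin-like growth factors, stood at 69.5 and 335 CPM in stroma-like cells (2.27) and at 104 and 34.6 CPM in ureteric epithelium-like cells (−1.58). *Igfbp7*, of the same family, stood at 20.9 and 87.3 CPM in endothelium-like cells (2.07) and at 316 and 27.4 CPM in nephron-like cells (−3.53). *Tcf21*, a transcription factor of stroma and podocytes, stood at 85.3 and 176 CPM in stroma-like cells (1.05) and at 51.1 and 21.7 CPM in nephron-like cells (−1.23). *Sostdc1*, a BMP antagonist, stood at 12.3 and 54.9 CPM in stroma-like cells (2.15) and at 172 and 16.1 CPM in nephron-like cells (−3.42).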

How the results depend on the processing

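No paired analysis was possible because each group had 1 library. The number of genes at least 2-fold higher in Enl-T1 was 108 by total UMIs, 201 by median of ratios, 226 with a floor of 10 CPM, 1555 with no floor beyond 1 UMI in each library and 236 at 1.5-fold. The number of genes at least 2-fold lower in Enl-T1 was 297 by total UMIs, 138 by the depleted total, 75 by median of ratios and 75 when a call was required under the 3 scalings, 193 over all deposited barcodes, 749 with a floor of 10 CPM, 3287 with no floor and 1231 at 1.5-fold. The median log2 ratio was −0.35, −0.15 by the depleted total and −5.6e-05 by median of ratios, which is close to 0 by construction. Of the 297 lower genes 75 stayed at 2-fold by median of ratios and 166 over all barcodes, while of the 108 higher genes 96 did with the lineages weighted as in Enl-WT and 89 in cells with Y-linked transcripts alone. The log2 ratio of Xist was −0.063 among cells that held *Xist* alone, and the log2 ratio of Eif2s3y was 0.069 among those with Y-linked transcripts alone. The other Y-linked genes, *Kdm5d*, *Ddx3y* and *Uty*, stayed lower in the latter set, at −0.59, −0.64 and −0.76. Both sets were chosen by these same transcripts. Of 201 named genes, 199 moved beyond their counting interval by median of ratios, 192 by the depleted total, 150 over all barcodes and 1 with doublets removed. Depth limits genes under the floor, and differences between embryos were not measured.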
